A study of Homo sapiens with 10 samples.

Results

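The keratin genes of 5 untreated human prostate cancer cell lines are described here, in bulk RNA-seq profiles of 10 samples, 2 biological repeats of each line. Every gene of the deposited table whose symbol is KRT, a number and at most 1 of the letters A, B or C was taken, which left out pseudogenes and the keratin-associated proteins of hair. This gave 54 keratins among 60642 gene symbols. The lines were LNCaP, DUCAP and VCAP, which respond to androgens, and DU145 and PC3, which do not. All were grown as established lines in phenol-red free RPMI with fetal bovine serum and harvested while growing exponentially, and no sample received a drug. LNCaP was the clone FGC, and DUCAP reached the study as a gift from another laboratory. Each condition is thus a line and not a patient group, and the 2 repeats measure the spread within that line.

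Keratins build the intermediate filaments of epithelial cells, and each filament is made of pairs of an acidic type I keratin with a basic to neutral type II keratin. The mix of keratins marks the kind of epithelium. In the prostate, luminal cells carry KRT8 with its partner KRT18, together with KRT19, whereas basal cells carry KRT5 with KRT14 and also KRT15 and KRT17. Hair keratins, such as KRT81 and KRT83, form the hard filaments of the hair shaft, and KRT6A, KRT6B, KRT6C and KRT16 are known from epidermis under stress or repair.

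Values were TPM, the share of a sample's transcripts that a gene holds after division by transcript length, scaled to a fixed total, which allows levels to be compared between genes. Depth is unknown from such values, and a 0 means only that the gene was listed at 0. The columns summed to between 982880 and 991998 TPM. The 37 mitochondrial genes held between 12.7 and 36.0% of the TPM of a sample, highest in DUCAP and VCAP, and a larger mitochondrial part lowers the TPM of every other gene. The epithelial markers EPCAM (23.4 to 264 TPM) and CDH1 (3.78 to 375 TPM) were present in every sample, both lowest in PC3. The prostate luminal markers KLK2, KLK3, TMPRSS2 and HOXB13 summed to at least 2277 TPM in LNCaP, DUCAP and VCAP and to 348 and 525 TPM in PC3, but only to 0.2 and 0.86 TPM in DU145. Most of the PC3 sum was HOXB13 (328 and 502 TPM), with TMPRSS2 at 18.9 and 22.7 TPM. KLK2 and KLK3 stayed at or under 0.77 TPM in both PC3 and DU145. Of the basal markers KRT5, KRT14 and TP63, KRT5 was listed at 0 and TP63 stayed at or under 0.24 TPM in all samples. KRT14 was measured at 4.56 and 3.25 TPM in VCAP and at most 0.83 TPM elsewhere. Leukocyte markers summed to at most 1.66 TPM. Fibroblast markers summed to at most 7.84 TPM outside PC3 and to 36.4 and 47.9 TPM in PC3. In PC3, COL1A1 was measured at 31.5 and 38.0 TPM, against at most 6.66 TPM elsewhere. COL3A1 was measured at 3.61 and 8.45 TPM in PC3 and at most 0.6 TPM elsewhere. LUM was highest in VCAP (5.35 and 5.12 TPM), and COL1A2, DCN and PDGFRB stayed at or under 0.79 TPM in all samples.

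Most keratins were low or listed at 0 in these cells, as were most symbols of the table. Of the 54 keratins, 19 were listed at 0 in every sample, another 19 never reached 1 TPM, 16 reached 1 TPM in at least 1 sample and 8 reached 10 TPM. Those 8 were KRT7, KRT18, KRT81, KRT8, KRT19, KRT80, KRT10 and KRT15. Of all 60642 symbols, 27918 were listed at 0 in every sample. In 2 or more samples, 1 TPM was reached by 17520 symbols and by 12 of the 54 keratins. The number of keratins at 1 TPM or more was 4 in both DUCAP samples, 5 in both LNCaP samples and 6 and 5 in VCAP, but 10 and 9 in DU145 and 10 in both PC3 samples. Each sample of the lines without an androgen response thus had more keratins at this level than any sample of the other lines. All genes tested also ran higher in DU145 and PC3, with a median log2 difference of 0.40. The larger mitochondrial part in DUCAP and VCAP lowers their other values. The same count was not made over all genes or on rescaled TPM, so the wider set is not shown to be particular to keratins.

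The summed keratin level separated the lines more sharply than the number of genes. Keratins summed to 4125 and 4201 TPM in DU145 and to 2658 and 2275 TPM in PC3. The sums were 859 and 891 TPM in LNCaP, 332 and 325 TPM in VCAP, and 230 and 243 TPM in DUCAP. No lines overlapped, and the highest sample stood 18.2-fold above the lowest. As a part of all TPM, keratins held between 0.0232 and 0.427%. In bulk samples, fewer cells that express a gene and less RNA of it per cell cannot be told apart.

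**Figure D1:**
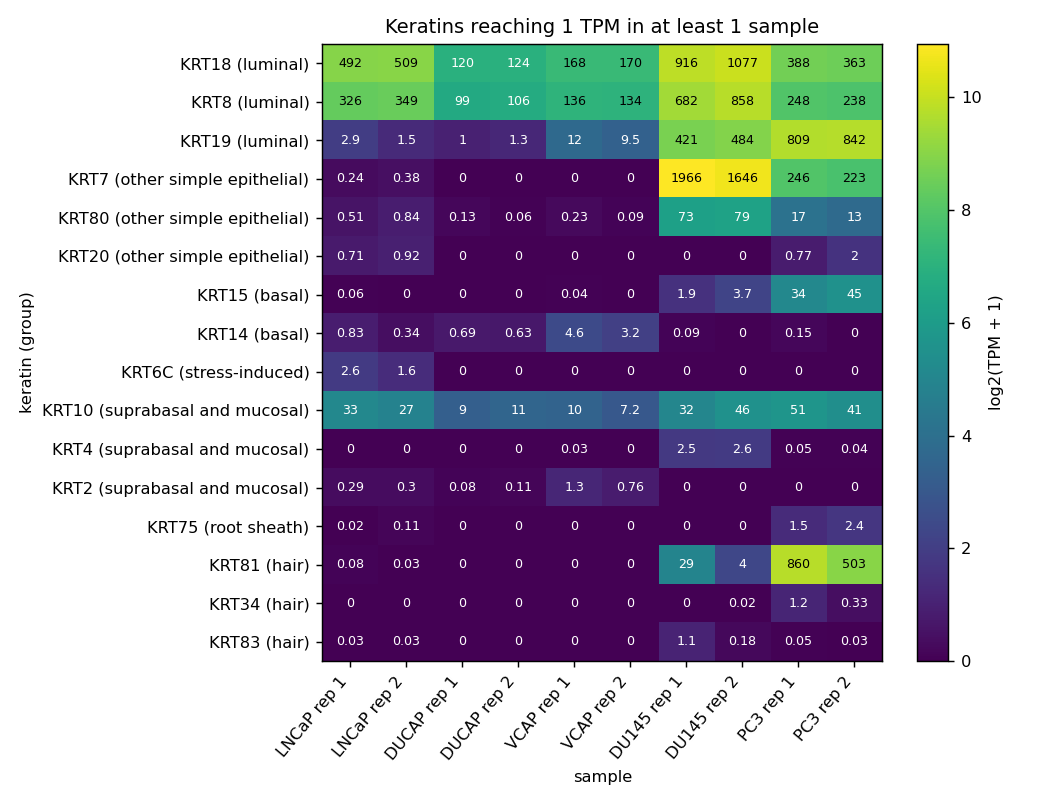
Level of the 16 keratins that reached 1 TPM in each of the 10 samples (columns), as log2(TPM + 1) by colour with the TPM written in each cell, ordered by keratin group (rows). KRT8, KRT18, KRT10 and KRT19 were at 1 TPM or more in all samples, and KRT7, KRT80 and KRT81 were above 1 TPM in DU145 and PC3 alone.

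KRT8 and KRT18, the primary pair of simple epithelium, were the only keratins above 90 TPM in every sample. KRT8 was measured at 326 and 349 TPM in LNCaP, 98.95 and 106 TPM in DUCAP, 136 and 134 TPM in VCAP, 682 and 858 TPM in DU145, and 248 and 238 TPM in PC3. KRT18 was measured at 492 and 509 TPM in LNCaP, 120 and 124 TPM in DUCAP, 168 and 170 TPM in VCAP, 916 and 1077 TPM in DU145, and 388 and 363 TPM in PC3. Both genes gave the same order of lines, DUCAP, VCAP, PC3, LNCaP and DU145 from low to high, and no samples of different lines overlapped for either gene. The mean of DU145 was 7.50-fold that of DUCAP for KRT8 and 8.16-fold for KRT18. In contrast, the ratio of KRT8 to KRT18 within a sample stayed between 0.639 and 0.860, a 1.35-fold range.

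The part of the keratin pool held by this pair differed between the lines. KRT8 and KRT18 together made up 95.1 and 96.2% of the keratin TPM in LNCaP, 91.3 and 93.6% in VCAP and 95.2 and 94.7% in DUCAP. Their share was 38.7 and 46.1% for DU145 and 23.9 and 26.4% for PC3. The pair was thus nearly the whole pool in the 3 lines that respond to androgens and less than the sum of the other keratins in both lines that do not, although its own level was highest in DU145.

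**Figure D2:**
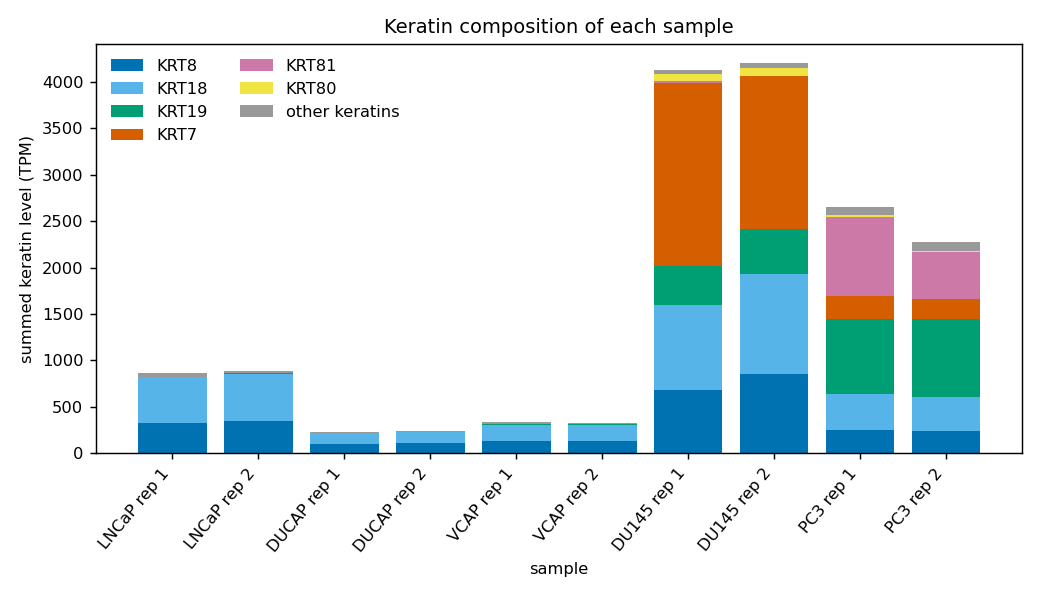
Summed keratin TPM of each of the 10 samples as stacked bars that start at 0, with a colour for each of 6 keratins and grey for the others. KRT8 and KRT18 fill over 90% of the bar in LNCaP, DUCAP and VCAP, and KRT7, KRT19 and KRT81 fill most of it in DU145 or PC3.

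KRT19, a small type I keratin without a tail domain, did not follow the pair it is usually grouped with. It was measured at 2.94 and 1.48 TPM in LNCaP, 1.00 and 1.32 TPM in DUCAP, 12.4 and 9.47 TPM in VCAP, 421 and 484 TPM in DU145, and 809 and 842 TPM in PC3. LNCaP lay just above DUCAP, a difference that was not tested on its own, VCAP lay above both, and the 4 samples of DU145 and PC3 lay far above all others. The mean of DU145 was 205-fold that of LNCaP, where KRT8 and KRT18 were among the higher values of the series. KRT19 held 10.2 and 11.5% of the keratin TPM in DU145 and 30.5 and 37.0% in PC3.

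KRT7, a type II keratin of many glandular and ductal epithelia, was the most abundant keratin in DU145. Its level was 1966 and 1646 TPM in DU145 and 246 and 223 TPM in PC3, against 0.24 and 0.38 TPM in LNCaP and listed values of 0 in all DUCAP and VCAP samples. The 4 samples with KRT7 above 1 TPM were thus those of DU145 and PC3, and the mean of DU145 was 7.69-fold that of PC3. KRT7 held 47.6 and 39.2% of the keratin TPM in DU145 and 9.27 and 9.81% in PC3. KRT80, another type II keratin, showed the same order of DU145 over PC3, with 72.8 and 79.2 TPM in DU145, 16.7 and 12.7 TPM in PC3 and at most 0.84 TPM elsewhere. KRT20, an intestinal and urothelial type I keratin, passed 1 TPM in 1 PC3 sample only (2.04 TPM, against 0.77 TPM in the other), and KRT23 was listed at 0 throughout.

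The basal keratins did not appear as a set. KRT5, the type II partner of KRT14, was listed at 0 in all 10 samples, and KRT17 never passed 0.43 TPM. KRT14 was measured at 4.56 and 3.25 TPM in VCAP, 0.83 and 0.34 TPM in LNCaP, 0.69 and 0.63 TPM in DUCAP, 0.09 and 0 TPM in DU145, and 0.15 and 0 TPM in PC3. For KRT14, no DU145 or PC3 sample reached the lowest value of the other lines, as for 6.92% of all genes tested. KRT15, a type I keratin of basal cells and of the hair follicle bulge, ran the other way, with 33.92 and 44.97 TPM in PC3, 1.91 and 3.69 TPM in DU145 and at most 0.06 TPM elsewhere. The mean of PC3 for KRT15 was 14.1-fold that of DU145. KRT14 and KRT15 therefore marked different lines, and neither was found with KRT5.

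Of the 16 hair keratins, 6 were listed at 0 in every sample and 13 stayed under 1 TPM. KRT81, a type II keratin of the hair cortex, was the exception, with 860 and 503 TPM in PC3 and 29.3 and 3.97 TPM in DU145, against at most 0.08 TPM in LNCaP and listed values of 0 in DUCAP and VCAP. The groups did not overlap, but the repeats differed 1.71-fold in PC3 and 7.37-fold in DU145, the latter the widest gap among the 8 keratins that reached 10 TPM, counted where both repeats were at 1 TPM or more. KRT81 held 32.3 and 22.1% of the keratin TPM in PC3 and was the most abundant keratin of the first repeat. KRT83, a close relative, reached 1.12 TPM in the DU145 sample with the higher KRT81 and 0.18 TPM in the other, and KRT34, a type I hair keratin, was measured at 1.22 and 0.33 TPM in PC3. No type I hair keratin approached the level of KRT81.

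Among the remaining keratins, KRT10, the type I keratin of differentiating epidermis, was the only one above 10 TPM. It was measured at 33.4 and 27.5 TPM in LNCaP, 9.03 and 10.9 TPM in DUCAP, 10.0 and 7.17 TPM in VCAP, 31.6 and 45.7 TPM in DU145, and 50.8 and 41.4 TPM in PC3. Its type II partners of the epidermis were low, since KRT1 was listed at 0 and KRT2 reached at most 1.27 TPM, in VCAP. KRT4, a mucosal type II keratin, was measured at 2.51 and 2.61 TPM in DU145 and at most 0.05 TPM elsewhere. KRT75, a root sheath keratin, was measured at 1.53 and 2.35 TPM in PC3 and at most 0.11 TPM elsewhere. KRT6C was measured at 2.58 and 1.62 TPM in LNCaP and listed at 0 in all other samples, whereas KRT6A, KRT6B and KRT16 stayed at or under 0.23 TPM.

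Type I and type II keratins combine in equal amounts in filaments, and their summed TPM were set side by side. The ratio of type II to type I TPM was 2.01 and 1.61 in DU145 and 1.07 and 0.756 in PC3, against 0.622 and 0.653 for LNCaP, 0.756 and 0.781 for DUCAP and 0.707 and 0.709 for VCAP. Type II transcripts exceeded type I in both DU145 samples and in 1 PC3 sample. Restricted to the 4 simple epithelial keratins of higher level, KRT7 plus KRT8 over KRT18 plus KRT19 gave 1.98 and 1.60 in DU145 and 0.413 and 0.383 in PC3. DU145 and PC3 lay on opposite sides of 1 by this ratio, and the hair keratin KRT81 brought the type II sum of PC3 back towards its type I sum.

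**Figure D3:**
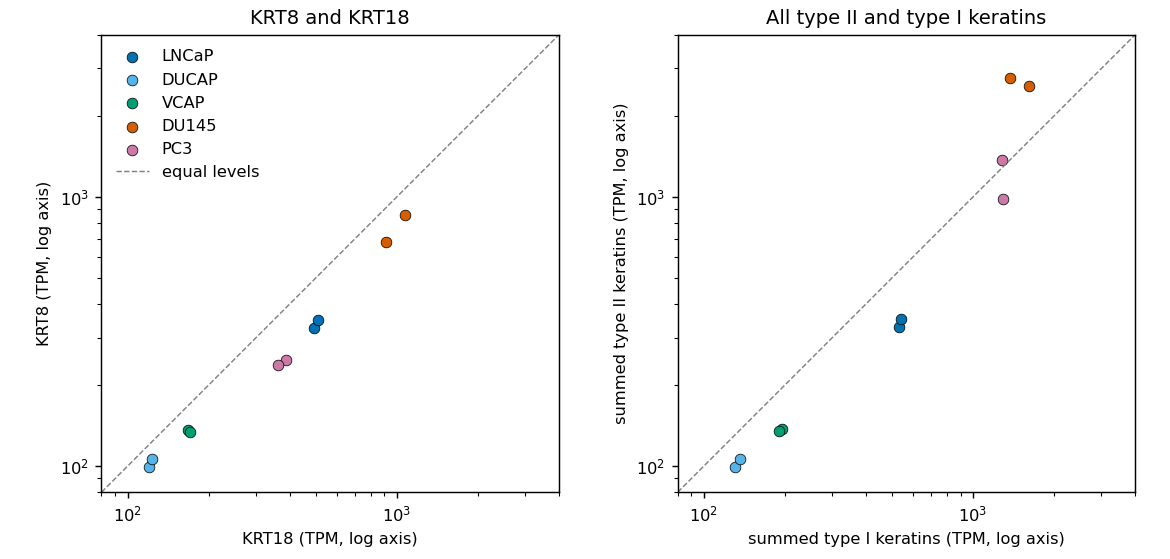
TPM of KRT8 against KRT18 (left) and summed TPM of type II against type I keratins (right) in the 10 samples, 1 point per sample coloured by line, on log axes, with a dashed line of equal levels. All samples lie under that line for KRT8 and KRT18, at ratios of 0.639 to 0.860, whereas both DU145 samples and 1 PC3 sample lie above it for the sums.

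Differences between the lines were tested with limma on log2(TPM + 1), over the 17520 genes that reached 1 TPM in 2 or more samples, among them 12 keratins. Values on this scale understate the change of low genes. A keratin that passed the filter through its high line alone had to differ between lines, so counts and medians over the 12 are descriptions. The error is the scatter of repeats within lines, pooled over the 5 lines, and an adjusted p speaks of these 5 lines alone. A line listed at 0 in both repeats adds no scatter. For KRT7 and KRT81, listed at 0 in DUCAP and VCAP, the error can therefore understate the spread in DU145 and PC3. For any difference among the 5 lines, 12 of 12 keratins and 90.8% of all genes tested were called at an adjusted p under 0.05.

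DU145 and PC3 were compared with LNCaP, DUCAP and VCAP, which contrasts the lines without an androgen response and those with one. Of the 12 keratins, 10 were higher and 2 were lower in DU145 and PC3, against 51.9% of all genes higher and 22.5% lower. The median log2 difference was 1.51 over the keratins and 0.40 over all genes. KRT7, KRT15, KRT80, KRT81, KRT4 and KRT75 had passed the filter through DU145 or PC3 alone, and KRT14 and KRT6C through VCAP and LNCaP alone. The keratin counts and median therefore show no shift of the family. The largest differences were those of KRT7, with a log2 difference of 9.22 (SE 0.10, adjusted p = 8.2e-10), KRT19, with 7.15 (SE 0.15, adjusted p = 8.7e-09), and KRT81, with 6.46 (SE 0.44, adjusted p = 3.0e-06). KRT80 followed with 4.75 (SE 0.12, adjusted p = 1.7e-08) and KRT15 with 3.58 (SE 0.15, adjusted p = 2.0e-07). KRT10, KRT18 and KRT8 were higher by 1.53, 1.48 and 1.36, respectively. KRT4 and KRT75, at low levels, were higher by 0.94 and 0.74. KRT4 was above 1 TPM in DU145 alone and KRT75 in PC3 alone, and KRT75 was listed at 0 in DU145. KRT14 differed by −1.14 (SE 0.12, adjusted p = 4.5e-05) and KRT6C, listed at 0 outside LNCaP, by −0.54 (SE 0.09, adjusted p = 7.9e-04).

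A called mean difference did not always mean that the samples separated. KRT7, KRT19, KRT80, KRT81, KRT15 and KRT4, 6 of the 12, were higher in all 4 samples of DU145 and PC3 than in all 6 others, against 19.8% of all genes tested. Of these 6, only KRT19 had also reached the filter level in the other lines. For KRT4 the separation of PC3 rested on values near 0, 0.05 and 0.04 TPM against at most 0.03 TPM in LNCaP, DUCAP and VCAP. KRT8 and KRT18 were not among the separated keratins, because both LNCaP samples exceeded both PC3 samples. KRT10 overlapped because an LNCaP sample exceeded a DU145 sample. Relative to the median gene, KRT8, KRT18 and KRT10 were higher by 0.96, 1.08 and 1.13. That median fell from 0.40 to 0.02 under median-ratio scaling, to −0.07 under quantile normalization and to 0.20 when TPM were rescaled without mitochondrial genes, and the calls of KRT8 (0.89 to 1.12), KRT18 (1.01 to 1.24) and KRT10 (0.98 to 1.32) held under all 3.

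**Figure D4:**
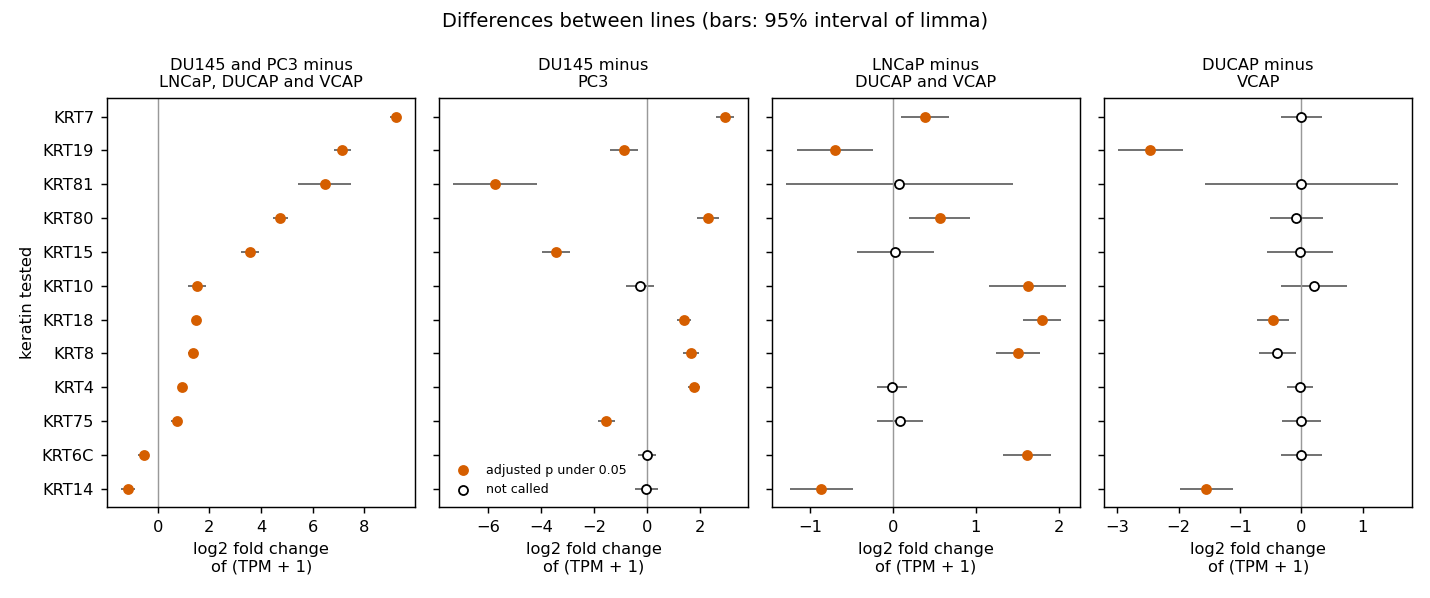
Log2 difference of each of the 12 tested keratins in 4 contrasts between lines, with 95% intervals from limma on log2(TPM + 1), filled points called at an adjusted p under 0.05. KRT7, KRT19 and KRT81 differ most between DU145 and PC3 and the other lines, and KRT81 and KRT7 point in opposite directions between DU145 and PC3.

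DU145 and PC3 differed from each other in most keratins they shared. Of the 12, 5 were higher and 4 were lower in DU145, against 23.8% of all genes higher and 25.5% lower. KRT7 (2.93, SE 0.15, adjusted p = 1.8e-06), KRT80 (2.30), KRT4 (1.77), KRT8 (1.65) and KRT18 (1.40) were higher in DU145 on the log2 scale. KRT81 (−5.75, SE 0.69, adjusted p = 2.3e-04), KRT15 (−3.44), KRT75 (−1.54) and KRT19 (−0.87, SE 0.23, adjusted p = 0.014) were lower. KRT10 differed by −0.26 with a 95% interval of −0.80 to 0.27 and was not called. The value for KRT81 ran from −7.05 to −4.44 when single samples were left out. The call for KRT19 was lost without the first DU145 repeat (adjusted p = 0.062), the first PC3 repeat (0.065) or the second (0.080).

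DUCAP and VCAP differed in fewer keratins. None of the 12 was higher in DUCAP, with 0 also at an unadjusted p under 0.05, and 3 were lower, against 4.24% of all genes higher and 14.0% lower. KRT19 was lower by a log2 difference of −2.46 (SE 0.23, adjusted p = 2.7e-04), KRT14 by −1.55 (SE 0.19, adjusted p = 1.1e-03) and KRT18 by −0.47 (SE 0.12, adjusted p = 0.027). KRT8 differed by −0.39 with a 95% interval of −0.70 to −0.09 and an adjusted p of 0.078. The pair sat near the threshold in this contrast. KRT18 lost its call under median-ratio scaling (adjusted p = 0.16) and quantile normalization (0.063) and when any of 6 single samples was left out, and KRT8 gained one without either DU145 sample (0.015) and with TPM rescaled without mitochondrial genes (−0.42, adjusted p = 0.024).

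LNCaP was set against the mean of DUCAP and VCAP. Of the 12 keratins, 6 were higher and 2 were lower in LNCaP, against 49.2% of all genes higher and 15.5% lower, and the median log2 difference was 0.24 over the keratins and 0.46 over all genes. KRT18 (1.79, SE 0.10, adjusted p = 2.2e-06), KRT10 (1.62), KRT6C (1.61) and KRT8 (1.51, SE 0.11, adjusted p = 1.0e-05) were higher by more than the median gene. KRT80 (0.57) and KRT7 (0.39) were higher at levels under 1 TPM, and relative to the median gene they differed by 0.10 and −0.08. KRT14 (−0.86) and KRT19 (−0.69) were lower, and both were highest in VCAP. Mean KRT19 was 2.21 TPM in LNCaP, above the 1.16 TPM of DUCAP and under the 10.9 TPM of VCAP. Mean KRT14 was 0.585 TPM in LNCaP, 0.66 TPM in DUCAP and 3.9 TPM in VCAP. The call for KRT7 was lost without the first LNCaP (adjusted p = 0.051), the second LNCaP (0.16) or the first DUCAP repeat (0.051), that for KRT80 without the second LNCaP repeat (0.13), and that for KRT19 without the second LNCaP repeat (0.16), where its value fell to −0.36.

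Keratin genes lie in 2 clusters, and the positions were read from the RefSeq annotation of GRCh38.p14. All 54 matched, 26 on chromosome 12, which holds the type II genes and KRT18, and 28 on chromosome 17, which holds the other type I genes. The abundant keratins of chromosome 12 sat at the ends of the cluster. At one end lay KRT80 (chr12:52168996-52192014), KRT7 (chr12:52233243-52255853) and KRT81 (chr12:52285913-52291534), the 3 that were high in DU145 or PC3 and under 1 TPM elsewhere. At the other end lay KRT8 (chr12:52897191-52949860) and KRT18 (chr12:52948855-52952906), expressed in all lines. Between them, KRT5 (chr12:52514575-52520394) was listed at 0. On chromosome 17, KRT15 (chr17:41513745-41518890) was the neighbour of KRT19 (chr17:41523617-41528308), and both were highest in PC3. The annotated spans of KRT8 and KRT18 overlap on opposite strands. The libraries kept the strand, but whether the counting used it is not given in the sources used here.

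**Figure D5:**
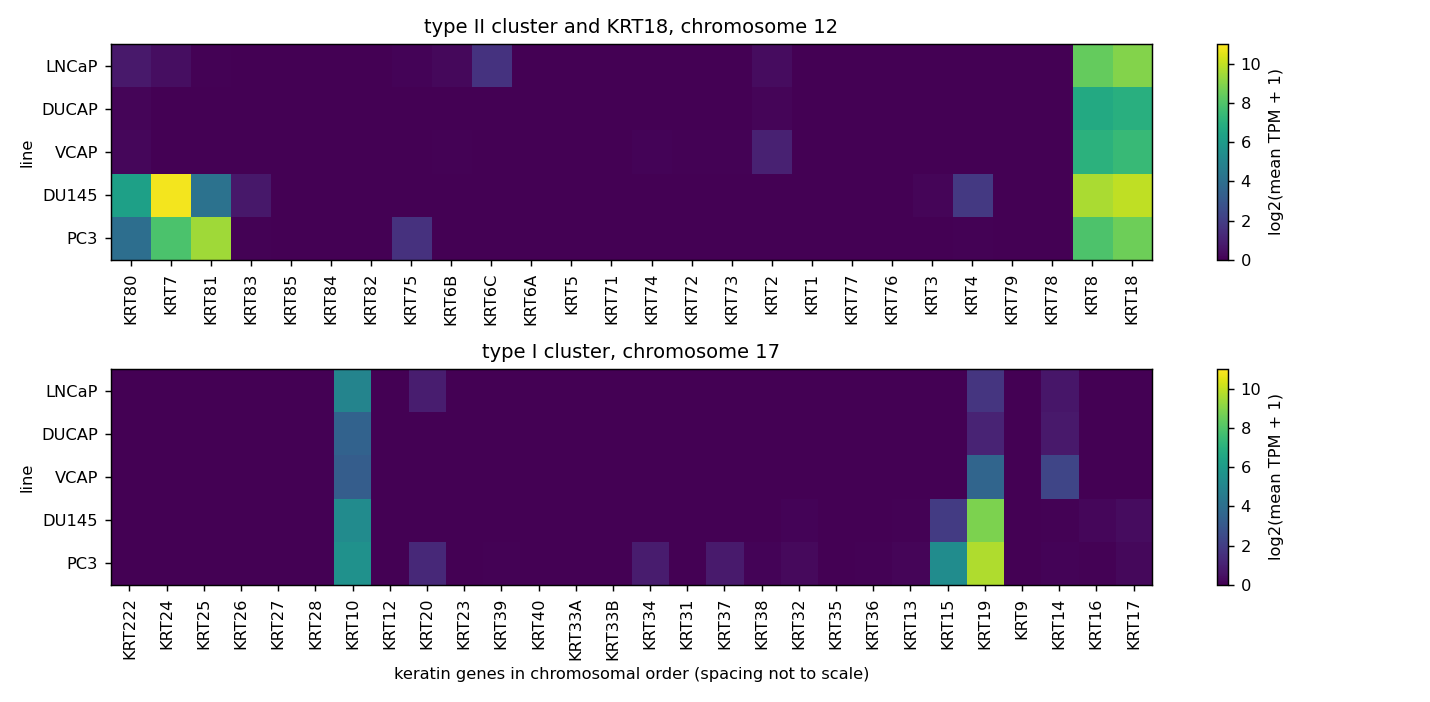
Mean level of every keratin in each line (rows) as log2(mean TPM + 1) by colour, with the genes in order along chromosome 12 (top) and chromosome 17 (bottom), not spaced to scale. The abundant genes of chromosome 12 sit at the ends of the cluster, with mostly dark columns between them.

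Several keratins resemble each other closely enough for reads to be shared between copies. In the canonical transcripts of GENCODE v44 on GRCh37, no 100-base word of KRT7, KRT18, KRT19, KRT10, KRT15, KRT4, KRT75 or KRT80 occurred in a transcript of another gene. Such words made up 7.12% of KRT8, most of them shared with its pseudogene KRT8P3, 6.05% of KRT14, 30.3% of KRT81 and 31.5% of KRT6C. The values of KRT81 and KRT6C are therefore uncertain, since reads from the shared words could be split between copies. None of the words of KRT83 occurred in another gene. Across the coding sequence, KRT6C was 97.9% identical to KRT6A and 98.5% identical to KRT6B. The stretches of 90 coding bases printed here show how few differences separate KRT6C from its relatives, with capitals at the positions that differ within the set. The first such stretch with at least 6 differences was taken.
KRT6A: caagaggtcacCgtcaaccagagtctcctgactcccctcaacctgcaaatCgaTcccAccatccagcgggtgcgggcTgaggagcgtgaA
KRT6B: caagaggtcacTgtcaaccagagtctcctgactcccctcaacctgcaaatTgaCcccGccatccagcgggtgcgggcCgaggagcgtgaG
KRT6C: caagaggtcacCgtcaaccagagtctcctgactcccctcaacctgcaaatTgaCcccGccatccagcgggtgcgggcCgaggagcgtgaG
Within this set, of which only KRT6C passed 1 TPM, 6 of the 90 positions differed.

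Pseudogene rows were compared with their parent genes. The table held 147 rows of keratin pseudogenes, of which 8 reached 1 TPM. KRT8P3 had the highest mean (6.98 TPM), followed by KRT8P12 (5.47 TPM) and KRT87P (4.48 TPM). The pseudogenes of KRT8 summed to between 3.57 and 6.11% of KRT8 in a sample and those of KRT18 to between 0.508 and 1.503% of KRT18. KRT87P, which lies among the hair keratins, was listed at 27.9 and 16.8 TPM in PC3, at 0.03 TPM in both DU145 samples and at 0 elsewhere. It was thus high in the same line as KRT81, but not in the DU145 sample with 29.3 TPM of KRT81.

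The sequences just upstream of the start were read for the keratins with an entry in the RefSeq promoter sequences of GRCh38.p14, 34 of 54. KRT7, KRT15, KRT18, KRT19, KRT80 and KRT81 had no entry. The word ATAAA, a part of the TATA box word TATAAA, was searched on the gene strand in the last 60 bases before the start. It was found in 27 of 38 keratin entries (71.1%), against 6.80% of all 35097 entries. The full TATAAA was not counted. On either strand it was found in 73.7% of keratin entries and 10.5% of all. A match is a run of letters and not a measured site. The 250 bases upstream of KRT5, listed at 0 in every sample, and of KRT10, measured in every sample, are shown because both hold the word at nearly the same distance, 29 and 28 bases before the start, at very different levels of the gene. Capitals mark the word within the last 60 bases before the start. The base before the word is t in KRT10, which completes TATAAA, and g in KRT5, which does not.
KRT5, chr12:52520395-52520644, minus strand: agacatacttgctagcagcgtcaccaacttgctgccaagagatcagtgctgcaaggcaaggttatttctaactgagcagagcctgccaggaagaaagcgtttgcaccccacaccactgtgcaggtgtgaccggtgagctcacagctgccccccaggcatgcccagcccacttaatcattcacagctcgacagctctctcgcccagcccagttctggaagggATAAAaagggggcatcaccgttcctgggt
KRT10, chr17:40822615-40822864, minus strand: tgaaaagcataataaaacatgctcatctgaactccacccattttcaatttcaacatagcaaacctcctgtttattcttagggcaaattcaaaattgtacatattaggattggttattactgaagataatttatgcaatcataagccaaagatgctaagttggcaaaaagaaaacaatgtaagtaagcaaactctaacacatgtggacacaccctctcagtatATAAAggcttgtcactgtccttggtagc
The upstream sequence of KRT5 was 56% G and C with 6 CG pairs, and that of KRT10 34.8% with 0, against medians of 58% and 11 over all entries.

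Genes that work with keratins were listed by role and counted in the contrast of DU145 and PC3 with the other lines. The filter acted on these lists too, so their counts and medians are descriptions. Of 15 other intermediate filament genes, 13 were tested, 9 were higher and 4 were lower, with a median log2 difference of 1.26, against 51.9% higher, 22.5% lower and a median of 0.40 over all genes. VIM, the vimentin of mesenchymal cells, was measured at 799 and 1201 TPM in DU145, 1097 and 1067 TPM in PC3, 3.28 and 4.25 TPM in LNCaP and listed at 0 in DUCAP and VCAP, a log2 difference of 9.26 (SE 0.13, adjusted p = 2.1e-09). VIM was thus high in the same lines as KRT7, with a difference of similar size. LMNA, a nuclear lamin, was higher by 5.24, whereas INA, a neuronal filament protein, differed by −2.20 and LMNB1 by −0.65. These lower values did not hold against every line. INA was listed at 0 in LNCaP but measured at 2.41 and 2.48 TPM in DU145, and mean LMNB1 was 83 TPM in DU145 and 70.4 TPM in LNCaP.

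Of 13 keratin-binding proteins of desmosomes, hemidesmosomes and linkers, all tested, 7 were higher and 2 were lower, with a median log2 difference of 0.27. These counts lie near the 51.9% higher and 22.5% lower of all genes, whose median was 0.40. PLEC, the linker plectin, was higher by 3.45 (adjusted p = 2.7e-07) and PPL, periplakin, by 2.53 (adjusted p = 8.5e-07). EPPK1, epiplakin, differed by −1.26 (adjusted p = 2.8e-05) and DSP, desmoplakin, by −0.63 (adjusted p = 3.3e-04), and DSP was measured at 8.14 to 33.4 TPM over all samples. Mean EPPK1 was 9.27 TPM in LNCaP and at most 0.66 TPM in any other line. Mean DSP was 18.2 TPM in DU145, above the 16.7 TPM of DUCAP and the 15.6 TPM of VCAP. Of 14 epithelial transcription factors, 11 were tested, 4 were higher and 5 were lower, with a median of −0.29, against the same shares and median over all genes. KLF5 (3.96) and TFAP2A (2.27) were higher, while EHF (−5.98) and GRHL2 (−5.25) were lower. GRHL2, a factor that maintains epithelial identity, was measured at 33.3 to 48.0 TPM in LNCaP, DUCAP and VCAP and at most 0.09 TPM in DU145 and PC3, the lines with the highest summed keratin TPM.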

How the data were processed

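Bulk RNA-seq of 5 prostate cancer lines, 10 samples in all, was analysed, and lines and repeat numbers were taken from the deposited labels. The authors trimmed reads with Trim Galore 0.6.5 after FastQC 0.11.9, aligned them with STAR 2.7.2b to GRCh38 and deposited RSEM 1.3.3 TPM in 1 table (tool versions per the submitters' processing notes). The columns are single repeats, and a scaling across samples is not given in the sources used here. TPM keep no depth, so no counting interval was computed. TPM were transformed to log2(TPM + 1), with a pseudocount of 1. Genes that reached 1 TPM in 2 or more samples entered a limma fit (version 3.58.1, R 4.3.3) with a coefficient for each line, a variance trend and Benjamini-Hochberg adjustment at 0.05 over all genes tested, two-sided. The lines were compared in 4 contrasts, and summed TPM received no test.

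The members, keratin groups and gene lists were chosen with earlier results of these data known. Named keratins were KRT8, KRT18, KRT19, KRT5 and KRT7, those reaching 10 TPM, and those called in a contrast with a log2 difference of at least 1 in size. KRT2, KRT17, KRT20, KRT34, KRT83 and the other keratins named are examples of their groups. From each other list the 2 largest called changes in each direction were named, and of the pseudogenes the 3 with the highest mean. Some items are not reported here. The fit was tested on simulated data, with a log2 change of 1.5 between DU145 and PC3 and the other lines in 200 of 17520 genes, of which 94% were recovered, 0 with the wrong sign, and 6% of the calls were false. Alternatives were another pseudocount, filter, scaling, variance model or threshold, the repeat number as a block, pseudogene rows added to the sums, and omission of single samples. Tables and figures were made in Python 3.11.15 with matplotlib 3.10.9, pandas 2.3.3 and numpy 2.4.6.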

Additional observations from a re-analysis of the deposited data

How the results depend on the processing

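Without a filter on low values, 35 keratins were tested instead of 12, and 21 were called between DU145 and PC3 and the other lines, 15 between DU145 and PC3 and 20 for any difference, against 12, 9 and 12. Over all genes, 15931 of 32724 were then called in the first of these. With a filter of 5 TPM in 2 samples, 8 keratins were tested, of which 8, 7 and 8 were called. At a threshold of 2-fold the LNCaP contrast kept 4 calls of 8 and that of DUCAP and VCAP 1 of 3, and the latter had 5 when TPM were rescaled without mitochondrial genes. That rescaling raised the mean keratin TPM to 1101 in LNCaP, 361 in DUCAP, 513 in VCAP, 5219 in DU145 and 2908 in PC3, and adding pseudogene rows gave 337 in VCAP. With single samples left out, the LNCaP contrast gave between 5 and 8 keratin calls, 5 without the second LNCaP repeat, the contrast of DUCAP and VCAP 2 to 4, that of DU145 and PC3 8 to 9, and the first contrast 12. A lone remaining repeat was then assumed to vary like the other lines. Of 896 recomputed values of named genes, 866 stayed on the same side of the threshold, 27 lost their call and 3 gained one. Some of those that stayed could not move. KRT7, KRT6C, KRT75 and KRT81 were listed at 0 in both DUCAP and VCAP, and KRT6C in both DU145 and PC3, so these differences were always 0. No called value changed sign, while some small differences that were not called did.

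The repeat numbers did not pair the samples: over 10 pairs of lines the correlation of same-numbered deviations ran from −0.191 to 0.249, with a mean of 0.00922. With a replicate block, 12, 9, 3 and 8 keratins were called in the 4 contrasts and 12 for any difference, the same counts as without it.

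Over all genes, a 2-fold threshold cut the calls from 13033 to 3826, 8642 to 2031, 3200 to 312 and 11326 to 3592 in the order of the report. Left-out samples moved those of DUCAP and VCAP between 1373, without the first DUCAP repeat, and 4819, without the first DU145 repeat. The split of all genes into higher and lower depended on scaling. It was 9093 and 3940 in the first contrast, 6616 and 6092 under median-ratio scaling and 6019 and 6825 under quantile normalization. It was 742 and 2458 between DUCAP and VCAP and 1762 and 1811 under quantile normalization, and 8615 and 2711 in the LNCaP contrast and 5352 and 5149 under quantile normalization. The 2 repeats per line and the missing depth limit what low keratins can show.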
